A study of Mus musculus with 12 samples.

Results

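The comparison described here was that of Msi2 mutant with wild-type leukaemic stem cells of an acute myelogenous leukaemia (AML) driven by the MLL-AF9 fusion. It rested on 6 Affymetrix mouse arrays, 3 per genotype, each hybridised with RNA of 1 sample. Its members were the probe sets paired with a single gene symbol with a log2 intensity over 4 (16 units on the linear scale) on 3 or more of these 6 arrays. They numbered 18301 of the 34945 probe sets with 1 symbol, among 45037 on the array, and stood for 10221 genes. All 6 arrays lay above 16 units for 16750 of the members, whereas 63 probe sets of 37 genes entered only through the wild-type arrays and 30 probe sets of 15 genes only through the mutant arrays. The genes that entered through 1 genotype alone had to differ, so their sizes are given as bounds, and the main counts are given with and without them.

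The leukaemias were started from stem and progenitor cells of the KLS phenotype, which were infected with MLL-AF9 and transplanted. The donors were wild-type mice or mice homozygous for a gene trap in Msi2 (Gt/Gt), and the strain field named B6;CB-Msi2Gt(pU-21T)2Imeg for every sample, wild-type included. From the resulting de novo AML, lineage-negative, Sca1-negative, Kit-positive cells were sorted, with no drug or other agent in either group. The titles call the arrays biological replicates, but nothing tells which animals or transplants lay behind each, so p values measure the spread between these samples. The other 6 arrays of the series, from a blast crisis chronic myelogenous leukaemia (bcCML) driven by BCR-ABL with NUP98-HOXA9 in the same 2 donor genotypes, lent their spread to the test and served as a comparison where stated. The design asks which genes follow the loss of Msi2 in AML stem cells.

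Musashi2, the product of Msi2, is an RNA-binding protein that recognises short motifs in messenger RNAs and alters their translation or stability. It is abundant in haematopoietic stem and progenitor cells and keeps leukaemic cells in an immature state. MLL-AF9 is a fusion of a chromatin regulator with a component of the transcription elongation machinery, and it keeps the Hoxa genes, Meis1 and Pbx3 active. Steady-state RNA levels, as measured here, do not show translation.

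Msi2 itself was low in the mutants. Its brightest probe set measured 325, 181 and 430 units on the 3 wild-type arrays and 52.9, 69.1 and 86.9 units on the 3 mutant arrays, a log2 difference of -2.11 ± 0.34 (SE; limma adjusted p = 0.0188). A second Msi2 probe set measured 449, 147 and 332 units in wild-type and 6.73, 17.3 and 17.8 units in mutant cells (adjusted p = 0.00392), and another 291, 131 and 259 against 10.2, 10.9 and 9.53 units (at least 13.4-fold lower, adjusted p = 0.000921). No mutant array reached the lowest wild-type array on any of these 3 probe sets. Of the other 2 member probe sets of Msi2 neither passed the threshold (adjusted p = 0.183 and 0.0973), though both had higher means in wild-type cells. The call of the brightest probe set was kept in 11 of the 12 fits that left out 1 array and was lost on leaving out AML wild-type array 1 (0.0853). The paralog Msi1 measured 29.8, 13.2 and 38.3 units in wild-type and 168, 66.6 and 57.5 units in mutant cells, without overlap between the groups, but the difference missed the threshold (adjusted p = 0.166).

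The sorted phenotype was checked against its marker genes. Kit measured 169 to 435 units over the 6 arrays and did not pass the threshold (log2 difference 0.41, adjusted p = 0.841). The T cell genes Cd3e, Cd4 and Cd8a and the B cell gene Ms4a1 lay below 16 units on all 6 arrays. The myeloid integrin gene Itgam measured 35.0 to 86.6 units (adjusted p = 0.164). Ly6a, which encodes Sca1, was not analysed here. Median intensity over all probe sets was 13.06 to 13.79 units on the 6 arrays. Arrays of the same genotype correlated at 0.929 to 0.973 and those of different genotype at 0.933 to 0.960, so the ranges overlapped.

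Loss of Msi2 was accompanied by more falls than rises. By the brightest probe set of each gene, 156 genes passed the threshold (1.53% of the 10221 tested), 115 of them lower (1.13%) and 41 higher (0.401%) in the mutants. On the level of probe sets the count was 240 (1.31%), of which 183 were lower and 57 higher. Of the 10169 genes with an array above 16 units in both genotypes, 131 passed (1.29%), 96 lower and 35 higher. Their differences ran from 0.61 to 4.53 in size on the log2 scale with a median of 1.45, and 39 differed by 2 or more, 29 of them lower and 10 higher. Over all genes the median log2 difference was -0.05, and 5832 genes (57.1%) had negative values. In 1196 genes (11.7%) the highest mutant array lay below the lowest wild-type array and in 548 (5.36%) the lowest mutant array above the highest wild-type array, and each called gene was of one of these kinds. Dim genes were called more often than bright ones, at 3.05%, 2.08%, 1.19% and 0.718% in 4 ranges of mean log2 intensity, parted at 6, 8 and 10, with the genes entering through 1 genotype included.

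**Figure D1:**
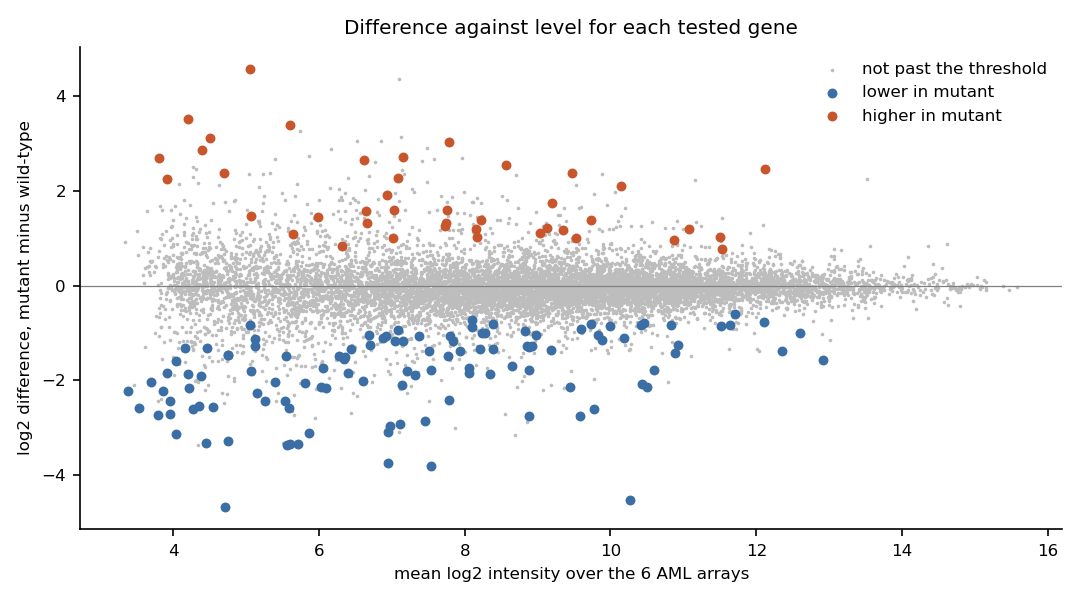
Log2 difference (mutant minus wild-type, vertical axis) against the mean log2 intensity over the 6 AML arrays (horizontal axis), 1 point per gene, with called genes in blue (lower) or orange (higher). The 115 falls outnumber the 41 rises, and large differences are most frequent at low intensity.

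Further probe sets of a gene were read on the same arrays by which the genes were chosen. Their signs are thus no independent support for these calls. Over all tested genes, 36 had at least 2 called probe sets, and 32 of them were among the 156. In none of the 36 did called probe sets point in opposite directions. For the 54 called genes with further member probe sets, 77 of these 82 probe sets (93.9%) had the sign of the brightest one. The exceptions lay in Ints2, Kif1b and Ddhd2, which are singled out here for that.

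The number of calls rested on the spread of the arrays. When limma was given only the 6 AML arrays, 0 probe sets passed, and the smallest adjusted p was 0.0709. An unadjusted p under 0.05 was found there for 1875 probe sets. It was found for all 156 genes too, but they were chosen with these same arrays, so that is no independent support. Leaving out 1 array gave between 40 genes (without AML wild-type array 1) and 174 (without AML mutant array 1), and 34 genes, 25 lower and 9 higher and bounded ones among them, passed in all 12 such fits. Without AML wild-type array 1 the calls of 118 of the 156 genes ended, and without AML mutant array 1 those of 61, when the calls were 103 lower and 71 higher.

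**Figure D2:**
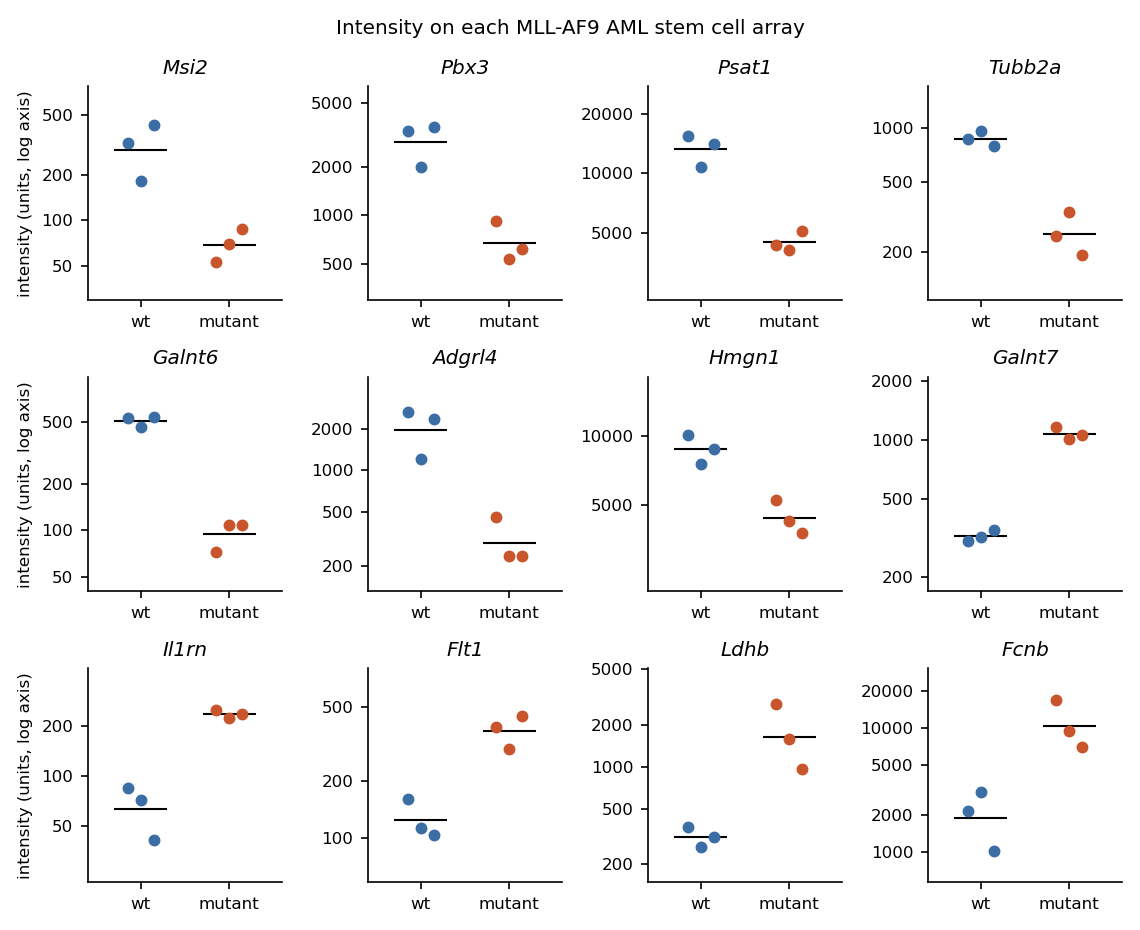
Intensity (units, log axis) of 12 named genes on each of the 3 wild-type (blue) and 3 mutant (orange) AML arrays, with a bar at the mean of the log2 values. In each panel the 2 genotypes do not overlap. Galnt7, Il1rn, Flt1, Ldhb and Fcnb are higher in the mutants and the other 7 genes lower.

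Regulators of transcription and chromatin were found among both the falls and the rises. Pbx3, a homeodomain partner of Hox proteins, measured 3334, 1983 and 3518 units in wild-type and 927, 536 and 617 units in mutant cells (log2 difference -2.08 ± 0.25, limma adjusted p = 0.00466). Its Hox partners did not follow one direction. Hoxb4, a homeobox gene known for expanding blood stem cells, rose from 50.1, 63.8 and 134 to 303, 184 and 208 units (1.59 ± 0.33, adjusted p = 0.048), while Hoxa9 differed by 0.05 (adjusted p = 0.935) and Meis1 by -0.24 (adjusted p = 0.647). Pbx3 and Hoxb4 were the only 2 calls among 13 tested Hox, Meis and Pbx genes, where 1.53% of all genes were called. The median difference of the 13 was 0.02 against -0.05 for all genes. Of 24 tested genes on a list of MLL fusion targets, which does not hold Pbx3, none passed, and their median was -0.02. Tcf24, a basic helix-loop-helix gene, fell from 1432, 403 and 578 to 28.9, 54.1 and 78.7 units.

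Both called genes of the high mobility group family encode proteins that bind nucleosomes and loosen chromatin. Hmgn3 fell from 201, 96.9 and 179 to 18.0, 20.2 and 8.88 units (-3.36 ± 0.35, adjusted p = 0.0033). Hmgn1, among the brightest called genes, fell from 10148, 7549 and 8812 to 5248, 4245 and 3740 units (-1.01 ± 0.17, adjusted p = 0.0222), and all 3 of its probe sets were called. The highest mutant array of each gene lay well under its lowest wild-type array. Of 62 tested DNA repair genes 2 fell, beside 1.13% of all genes, Parp1, which senses DNA strand breaks (4340, 3325 and 4159 against 2008, 2114 and 2446 units), and Mutyh, a glycosylase acting on oxidised bases (-0.83 ± 0.14, adjusted p = 0.0253). For Parp1 1 of 4 probe sets was called. Myc differed by -0.31 (adjusted p = 0.848), Myb by 0.08 (0.875), Spi1 by 0.21 and Cebpa by -0.05, none past the threshold. The calls of Pbx3, Hmgn3 and Tcf24 were kept in all 12 fits that left out an array. Those of Hmgn1, Mutyh, Parp1 and Hoxb4 ended in some of them, at the highest without AML wild-type array 1 (adjusted p = 0.0972, 0.111, 0.129 and 0.164).

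Genes of cytokine and growth factor signalling moved in both directions. Il3ra, the ligand-binding subunit of the interleukin-3 receptor, fell from 316, 371 and 246 to 59.3, 88.8 and 109 units (-1.89 ± 0.27, adjusted p = 0.0111). Flt1, a receptor for vascular endothelial growth factors, rose from 162, 113 and 104 to 392, 298 and 450.3 units (1.60 ± 0.22, adjusted p = 0.00838). Vegfa, its ligand, rose from 146, 171 and 101 to 352, 259.8 and 387 units (1.27 ± 0.23, adjusted p = 0.0281). A receptor and its ligand were thus both higher on every mutant array, while a further Flt1 ligand, Pgf, fell from 22.9, 24.1 and 42.0 units to below the filter level (at least 1.78-fold lower, adjusted p = 0.0342). Angpt1, which binds the receptor Tek, fell from 599, 194 and 399.8 to 107, 35.3 and 20.3 units (-3.08 ± 0.55, adjusted p = 0.028). Flt3 (-3.09 ± 0.77, adjusted p = 0.0935) and Cd34 (-2.70 ± 0.68, adjusted p = 0.0958) had differences of like size with more spread, and did not pass. On wild-type array 2 Flt3 measured 149 units and Cd34 304, against 642 and 674 and against 1602 and 1800 on the other wild-type arrays, so that array came close to mutant array 1 for Flt3 (147 units) and below it for Cd34 (312 units).

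Surface and adhesion proteins moved in both directions, with large falls among the brightest of them. Cd93, a lectin-like protein of progenitors and myeloid cells, fell from 8769, 9064 and 7646 to 3197, 3001 and 3562 units. Itga1, a collagen-binding integrin subunit, fell from 4008, 1705 and 4084 to 451, 929 and 778 units. Adgrl4, an adhesion G protein-coupled receptor, fell from 2668, 1219 and 2382 to 461, 238 and 236 units (-2.74 ± 0.38, adjusted p = 0.00924). Each of the 3 lay lower on every mutant array. Tspan3, the tetraspanin that the series title names, fell from 74.9, 109 and 57.9 to 6.92, 20.6 and 30.3 units (-2.26 ± 0.46, adjusted p = 0.0449). Mfge8, a secreted bridge between integrins and phosphatidylserine, fell by 2.16 ± 0.23 on the log2 scale (adjusted p = 0.0033). Among the rises, Sdk1, an adhesion molecule of the immunoglobulin family, went from 13.6, 5.69 and 44.3 to 197, 237 and 84.5 units (3.39 ± 0.61, adjusted p = 0.0295), and the membrane protein gene Megf9 from 559.5, 488 and 528 to 1245, 1733 and 1206 units (1.39 ± 0.25, adjusted p = 0.028). For both, every mutant array was above every wild-type array.

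Of 34 tested genes of NF-kB and tumour necrosis factor signalling 2 rose, Tnip1 and Tnfaip2, where 0.401% of all genes did. The list's median was 0.07. Il1rn, the interleukin-1 receptor antagonist, went from 85.1, 71.7 and 41.0 to 249.9, 225 and 237 units (1.91 ± 0.23, adjusted p = 0.00451). Tnip1, which binds the NF-kB inhibitor A20, went from 1497, 1365 and 1163 to 2765, 2770 and 2326 units (0.97 ± 0.14, adjusted p = 0.0131), and Tnfaip2, a gene induced by tumour necrosis factor, from 2402, 2131 and 2262 to 4156, 3549 and 4005 units (0.78 ± 0.16, adjusted p = 0.0452). For these 3 genes the mutant arrays were close to each other and above every wild-type array. Il1f9, an inflammatory cytokine of the interleukin-1 family singled out after its values were seen, was higher too (10.23, 6.91 and 4.63 against 24.65, 71.15 and 20.35 units, at least 2.06-fold, adjusted p = 0.031), and entered through mutant arrays alone. Of the signalling and surface genes named, Flt1, Adgrl4, Mfge8, Il1rn and Tnip1 were called without each of the 12 arrays in turn. The calls of Il3ra, Vegfa, Angpt1, Cd93, Itga1, Tspan3, Sdk1, Megf9 and Tnfaip2 ended in 1 or more of these fits, at the highest without AML wild-type array 1 (adjusted p = 0.0514, 0.0919, 0.111, 0.143, 0.168, 0.143, 0.111, 0.0919 and 0.128), and that of Pgf without AML mutant array 3 (0.0889).

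Called enzymes of serine and one-carbon metabolism fell. Psat1, an aminotransferase of the serine synthesis pathway and one of the brightest called genes, fell from 15338, 10728 and 14034 to 4308, 4088 and 5111 units (-1.56 ± 0.18, adjusted p = 0.00392). No mutant array came near the lowest wild-type array. Mthfd2l, a mitochondrial enzyme of folate one-carbon metabolism, fell by 1.14 ± 0.24 on the log2 scale (adjusted p = 0.0484). They were the 2 calls among 22 tested genes of serine and one-carbon metabolism, where 1.13% of all genes were called lower. Of the 22 genes 18 had negative differences, and the list's median was -0.47. Mthfd1l (-0.57, adjusted p = 0.0902) and the reduced folate carrier gene Slc19a1 (-0.67, adjusted p = 0.121) came next and did not pass. The list's median deviation from its mean over the 6 arrays was 0.38, 0.21 and 0.00 on the wild-type arrays and -0.32, -0.22 and -0.07 on the mutant arrays, so wild-type array 3 and mutant array 3 lay close together.

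Among genes of amino acid transport and breakdown 2 fell as well. Slc7a5, the light chain of the transporter of large neutral amino acids, fell from 1033, 1009 and 1129 to 494, 538 and 665 units (-0.91 ± 0.18, adjusted p = 0.041), and Acad8, a dehydrogenase of valine breakdown, from 209, 174 and 141 to 83.5, 96.3 and 63.1 units (-1.11 ± 0.21, adjusted p = 0.0371). Of 23 tested genes of branched-chain amino acid metabolism 2 were lower, where 1.13% of all genes were, 17 had negative differences (57.1% of all genes had) and the median was -0.26. This median was -0.01 without wild-type array 2 and -0.43 without wild-type array 3.

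Gpam, Fads1 and Cers4, single enzymes of lipid synthesis, fell as well, without a common fall of such genes. Of 20 tested genes of fatty acid synthesis and desaturation 1 was called lower, and the median was -0.07. Among 37 tested phospholipid and sphingolipid enzymes 1 was called lower, 24 were positive and the median was 0.09. Of all genes 1.13% were called lower. Gpam, which starts glycerolipid synthesis, fell from 512, 468 and 439 to 161, 218 and 184 units (-1.34 ± 0.16, adjusted p = 0.00453). Fads1, a fatty acid desaturase, fell from 75.2, 55.0 and 29.1 units to below the filter level (at least 3.08-fold lower, adjusted p = 0.00509), and Cers4, a ceramide synthase, from 18.2, 27.9 and 22.6 units (at least 1.41-fold lower, adjusted p = 0.00425). In carbohydrate metabolism Ldhb, a lactate dehydrogenase subunit, rose from 368, 265 and 314 to 2844, 1568 and 955 units (2.37 ± 0.35, adjusted p = 0.0131), and Pfkm, the muscle form of phosphofructokinase, fell from 76.7, 89.5 and 89.8 to 29.9, 27.3 and 11 units (-2.03 ± 0.40, adjusted p = 0.038). Pfkfb4, a kinase that makes an activator of glycolysis, rose by 1.09 ± 0.22 (adjusted p = 0.0427). The 24 tested glycolysis genes otherwise showed no common direction, with a median of -0.05. G0s2, an inhibitor of triglyceride breakdown, rose from 201, 195 and 171 to 533, 435 and 340.0 units, and Slc25a4, a mitochondrial ATP and ADP carrier, fell from 3198, 3188 and 2360 to 549, 1058 and 1009 units, with all 3 probe sets called. The calls of Psat1, Gpam, Fads1, Cers4, Ldhb and G0s2 were kept without each of the 12 arrays. Those of Slc25a4, Slc7a5, Acad8, Mthfd2l, Pfkm and Pfkfb4 ended in 1 or more fits, at the highest without AML wild-type array 1 (adjusted p = 0.0571, 0.133, 0.147, 0.156, 0.114 and 0.156). Psat1, Gpam and Fads1 lie on chromosome 19, whose genes were lower as a whole.

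Ribosome production takes place largely in the nucleolus, where RNA polymerase I transcribes ribosomal RNA and assembly factors trim and fold it into subunits. Of 55 tested nucleolar genes 54 had negative differences, with a median of -0.38 against -0.05 for all genes. Only 2 of them passed, where 1.13% of all genes were called lower. Rrp12, a factor for subunit maturation, fell from 259.7, 224 and 166 to 77.1, 113 and 95.7 units (-1.18 ± 0.21, adjusted p = 0.0291), and Polr1e, a subunit of RNA polymerase I, from 719, 669.7 and 787 to 275, 373 and 425 units (-1.04 ± 0.19, adjusted p = 0.0298). Nolc1 (-1.12 ± 0.24, adjusted p = 0.0558) and Pa2g4 (-0.62 ± 0.14, adjusted p = 0.0653) fell short of the threshold. Of the 55 genes 4 lie on chromosome 19, whose genes were lower as a whole, Rrp12 among them. Without these 4 genes the list's median was -0.36. In 33 of the 55 genes every mutant array was lower than every wild-type array, where 11.7% of all genes did so. The list's median deviation was 0.26, 0.23 and 0.11 on the wild-type arrays and -0.21, -0.28 and -0.10 on the mutant arrays, so the median parted by genotype, although 22 single genes overlapped or went the other way. The genes were part of a list already known to be low in these samples, so the count is no independent support for the direction.

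Other parts of the machinery for making proteins had the same sign and few calls. All 22 tested cytosolic aminoacyl-tRNA synthetase genes, which charge transfer RNAs, had negative differences (median -0.32), and none passed, with Sars at -0.62 (adjusted p = 0.2) and Yars at -0.73 (adjusted p = 0.264). Among 33 tested genes of RNA polymerase III and transfer RNA processing, 28 were negative (median -0.28), and Rpp40, a protein of the transfer RNA trimming enzyme RNase P, fell from 335, 269 and 371 to 143, 197 and 129.8 units (-1.06 ± 0.19, adjusted p = 0.028). Cytosolic ribosomal proteins themselves had a median of -0.06 over 43 genes with 40 negative and none called. Proteasome genes had a median of -0.18 over 38 genes, 37 of them negative and none called (median -0.10 without mutant array 3). These medians are descriptions, without a test of a list against other genes.

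Mitochondrial gene expression showed small differences of this sign too. Of 76 tested genes of the mitochondrial ribosome 70 were negative, and the list's median was -0.27. Among the 76, 3 were called lower, where 1.13% of all genes were, and these 3 encode ribosomal proteins. Mrps23 went from 1160, 1173 and 1054 to 753, 630.1 and 564 units (-0.81 ± 0.14, adjusted p = 0.0233), Mrpl16 from 1765, 1847 and 1532 to 546, 985 and 942 units (-1.10 ± 0.22, adjusted p = 0.0437) and Mrpl11 from 4250, 4066 and 4131 to 2570, 2604 and 3006 units (-0.61 ± 0.12, adjusted p = 0.0452). Genes of import into mitochondria had a median of -0.31 over 33 members with none called. Respiratory complex I had a median of -0.15 over 32 members, 28 of them negative. Its core subunit gene Ndufv1 fell from 1953, 1856 and 1782 to 939, 1143 and 1142 units (-0.80 ± 0.13, adjusted p = 0.0222), with all 3 probe sets called. Mrpl16, Mrpl11 and Ndufv1 lie on chromosome 19, whose genes were lower as a whole. Of the 76 mitochondrial ribosome genes 5 lie there, and without them the list's median was -0.25. Mrps23 lies near Msi2 on chromosome 11. The part of position in these calls was not tested. For the mitochondrial ribosome the median deviation of wild-type array 3 was -0.05 and that of mutant array 1 was -0.05, so these 2 arrays did not part by genotype. None of the protein synthesis and mitochondrial calls named held in every fit that left out an array. With AML wild-type array 1 left out, they had adjusted p values of 0.115 for Rrp12, 0.11 for Polr1e, 0.111 for Rpp40, 0.0986 for Mrps23, 0.152 for Mrpl16, 0.164 for Mrpl11 and 0.0992 for Ndufv1.

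**Figure D3:**
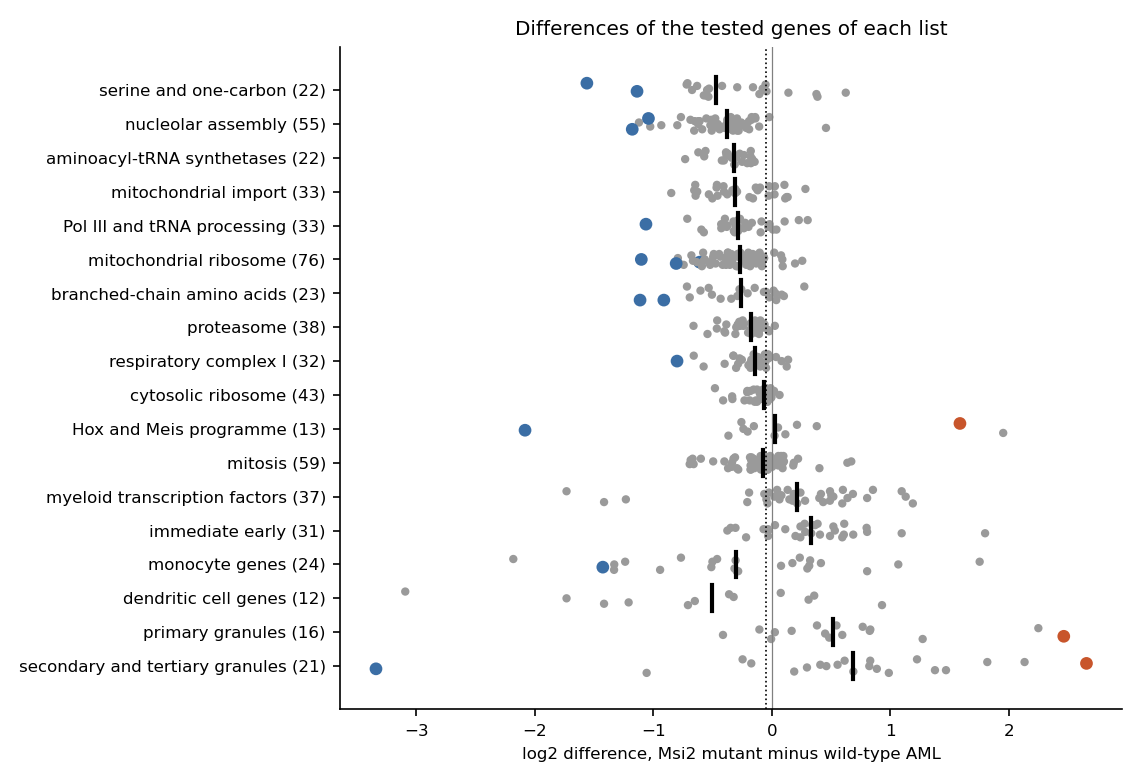
Log2 difference (mutant minus wild-type) of every tested gene of selected lists, 1 point per gene, with a bar at each list's median, a dotted line at the median of all genes and called genes in blue (lower) or orange (higher). Nearly all genes of the nucleolar, aminoacyl-tRNA synthetase and mitochondrial ribosome lists lie below 0, and most granule genes above it.

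The promoters of the nucleolar genes were searched for 2 short sequences on both strands of RefSeq windows of 300 bases on GRCm38.p6, which run from 250 bases before to 50 bases after a start. CACGTG, a sequence bound by Myc with Max, occurred in 20.4% of the 49 nucleolar genes with a window, in 12.1% of all tested genes and in 8.1% of all genes with a window. CCGGAAGT, bound by factors of the Ets family, occurred in 26.5%, in 840 of 8389 tested genes and in 4.3%. Nucleolar genes with CCGGAAGT had a median difference of -0.45 (13 genes) and those without it -0.36 (36 genes), while for CACGTG the medians were -0.27 (10 genes) and -0.40 (39 genes). Among called genes with a window, CACGTG occurred in 14.3% of 91 lower and 2.9% of 35 higher ones, and CCGGAAGT in 8.8% and 0.0%. Shown are the 250 bases before the start of 3 nucleolar genes, the 3 with the smallest p whose stretch holds either sequence, chosen after their values were seen. Wdr74 lies at chr19:8735589-8735838 (plus strand), Nhp2 at chr11:51619523-51619772 (plus strand) and Polr1c at chr17:46248046-46248295 (minus strand). Capitals mark CCGGAAGT, which begins 27, 23 and 42 bases before the start.
Wdr74: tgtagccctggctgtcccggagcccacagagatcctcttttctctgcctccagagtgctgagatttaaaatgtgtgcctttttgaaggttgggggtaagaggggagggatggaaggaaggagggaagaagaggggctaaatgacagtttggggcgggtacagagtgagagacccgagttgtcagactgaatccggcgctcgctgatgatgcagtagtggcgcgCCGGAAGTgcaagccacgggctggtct
Nhp2: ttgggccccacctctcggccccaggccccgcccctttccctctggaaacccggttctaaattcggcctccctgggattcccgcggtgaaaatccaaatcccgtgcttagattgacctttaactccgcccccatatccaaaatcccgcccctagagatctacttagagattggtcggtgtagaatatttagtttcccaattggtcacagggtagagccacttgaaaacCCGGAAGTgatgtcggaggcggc
Polr1c: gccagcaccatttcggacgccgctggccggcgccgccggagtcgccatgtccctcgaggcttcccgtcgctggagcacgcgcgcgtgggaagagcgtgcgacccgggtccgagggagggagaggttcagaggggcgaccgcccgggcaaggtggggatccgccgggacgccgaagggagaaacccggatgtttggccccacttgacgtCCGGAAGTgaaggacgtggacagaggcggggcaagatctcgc
None of the 3 genes passed the threshold. Wdr74 had mean intensities of 754 units in wild-type and 409 in mutant cells (-0.93 ± 0.21, adjusted p = 0.0732), Nhp2 of 2143 and 1332 units (-0.69 ± 0.18, adjusted p = 0.118) and Polr1c of 1610 and 1184 units (-0.44 ± 0.13, adjusted p = 0.144). In each of the 3 the mutant arrays were below the wild-type arrays. A match to these letters is no evidence that a factor binds there.

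Granule proteins of neutrophils are made in order during maturation, primary granule proteins in promyelocytes and secondary and tertiary granule proteins later. Of 16 tested primary granule genes 13 had positive differences (median 0.52, and 0.31 without wild-type array 3) and 1 rose, where 0.401% of all genes did. Fcnb, a lectin of primary granules, went from 2141, 3056 and 1028 to 16881, 9514 and 7036 units (2.46 ± 0.41, adjusted p = 0.0222). Mpo, myeloperoxidase, measured 5900, 17242 and 1528 units in wild-type and 26863, 25129 and 24771 units in mutant cells, and did not pass (2.25 ± 0.84, adjusted p = 0.261). The Mpo values of the mutants were nearly equal, and those of the wild-type arrays spread widely below them. The summed intensity of the list ran from 121011 to 192915 units over the wild-type and from 215538 to 231554 units over the mutant arrays.

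Of 21 tested secondary and tertiary granule genes 17 had positive differences (median 0.69), with 12 higher and 1 lower on all mutant arrays than on all wild-type arrays, against 5.36% and 11.7% of all genes. Ltf, lactoferrin, rose from 32.9, 67.2 and 27.5 to 555, 201 and 136 units (2.66 ± 0.54, adjusted p = 0.0465), while Mmp8, the neutrophil collagenase, fell from 132, 288 and 97.1 to 9.92, 23.9 and 15 units (-3.34 ± 0.38, adjusted p = 0.00425). Wfdc21 (2.13, adjusted p = 0.0757) and Olfm4 (1.47, adjusted p = 0.0902) did not pass. The list's sum was 117063 to 141299 units in wild-type and 162098 to 200243 units in mutant cells. The sum of 21 stem and progenitor markers was lower, at 22528 to 28335 units in wild-type and 17651 to 21374 units in mutant cells. The single markers had no common direction, with 11 of the 21 positive and a median of 0.06. Of them 2 were called lower and 1 higher, beside 1.13% and 0.401% of all genes. The part of these markers in the result was not tested. A different share of granule-making cells and a different amount of RNA per cell cannot be told apart in sorted bulk samples. The call of Mmp8 was kept without each array, that of Fcnb was lost when AML wild-type array 1 was left out (0.0713), and that of Ltf in 10 of the 12 fits, at the highest without that same array (0.164).

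The medians of the monocyte, dendritic cell and antigen presentation lists depended on single arrays, mutant arrays 1 and 2 among them. The 24 tested monocyte and macrophage genes had a median difference of -0.30 with all arrays and of 0.35 without that array. Their median deviation was -1.53 on mutant array 1, 0.87 and 0.08 on the other mutant arrays and 0.02 to 0.15 on the wild-type arrays. The dendritic cell list (12 genes) went from a median of -0.50 to 0.06 on leaving that array out, and the antigen presentation list (24 genes) from -0.25 to 0.09, whereas 59 mitosis genes went from -0.07 to -0.41. Leaving out mutant array 2 gave -0.84 for monocyte, -0.66 for antigen presentation and 0.14 for mitosis genes. The dendritic cell list gave 0.13 without wild-type array 2 and -1.09 without wild-type array 3, so none of these lists had a settled direction. On the first principal component of the 6 arrays, with 33.0% of the variance, mutant array 1 lay at 85.0 and the other 5 between -23.7 and -3.18. The summed monocyte list was 38275 units on that array, 138208 and 90021 units on the other mutant arrays and 79887 to 88500 units on the wild-type arrays. The part of these cells in the results was not tested beyond leaving the array out.

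The called genes of these lists were lower. Ly86, a partner of the receptor Cd180, fell from 3295, 3196 and 2843 to 779, 1386 and 1429 units (-1.43 ± 0.27, adjusted p = 0.0365), and Cd1d1, which presents lipid antigens, from 548, 919 and 749 to 438, 217 and 274 units (-1.28 ± 0.26, adjusted p = 0.045). H2-DMa (-1.19, adjusted p = 0.055) and H2-Ob (-2.03, adjusted p = 0.0566) did not pass. Mutant array 1 was the lowest of the 6 for Ly86 and the highest mutant array for Cd1d1. Both calls ended in most fits that left out an array, at the highest without AML wild-type array 1 for Ly86 (0.136) and without AML wild-type array 2 for Cd1d1 (0.127). Few markers of other lineages were measurable, 4 of 14 for B cells and 5 of 16 for erythroid cells. For T and NK cells 4 of 18 were, with sums of 1824 to 5521 units in wild-type and 5660 to 8544 units in mutant cells, without overlap. Their median deviations did overlap, at -0.10, 0.18 and -0.39 on the wild-type and 0.54, 0.09 and -0.22 on the mutant arrays. Of the 4 genes 1 was lower and 1 higher on all mutant arrays than on all wild-type arrays. None of the genes of these 3 lists was called.

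**Figure D4:**
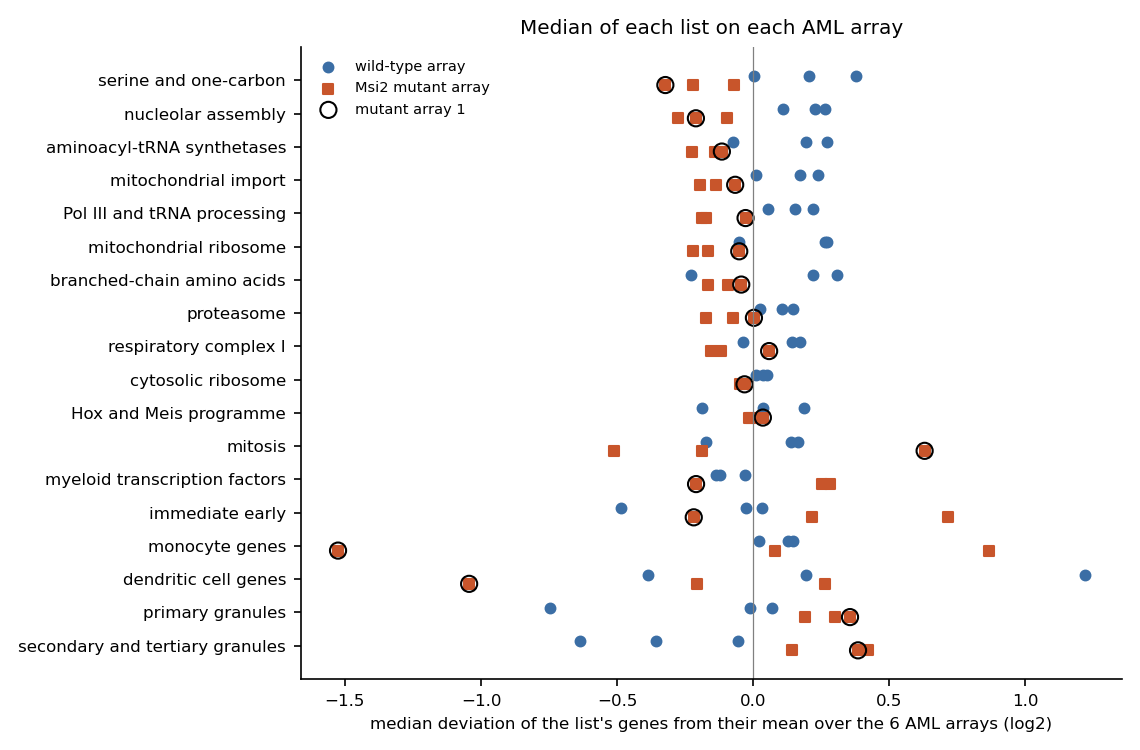
Median deviation of each list's genes from their mean over the 6 AML arrays (log2), per array, with wild-type arrays as blue circles, mutant arrays as orange squares and mutant array 1 ringed. The nucleolar and granule lists part by genotype, while for monocyte and mitosis genes mutant arrays 1 and 2 lie on opposite sides of the other arrays.

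Genes of the cytoskeleton included some of the most stable differences. Tubb2a, a beta-tubulin, fell from 874, 963 and 791 to 249, 339 and 193 units (-1.78 ± 0.19, adjusted p = 0.0033), and Tubd1, delta-tubulin of centrioles, from 131, 152 and 81.8 to 20.8, 21.3 and 16.9 units (-2.59 ± 0.32, adjusted p = 0.00516). Nefh, a neurofilament subunit, fell below the filter level from 55.0, 166 and 37.0 units (at least 4.35-fold lower, adjusted p = 0.011). Mical3, of an enzyme family that oxidises actin, fell from 450.1, 434 and 467 to 82.6, 26.7 and 17.1 units (-3.75 ± 0.71, adjusted p = 0.0342). Chn2, a GTPase-activating protein for Rac, fell by 2.05 ± 0.28 on the log2 scale (adjusted p = 0.00924), whereas Dock1, which activates Rac, rose from 51.3, 205 and 44.1 to 839, 556 and 544 units (3.03 ± 0.59, adjusted p = 0.0383). For these genes the genotypes did not overlap. Kif1b, a kinesin, rose by 1.03 ± 0.19 on its brightest probe set (adjusted p = 0.0337), but 2 of its 6 probe sets had the opposite sign and only the brightest was called, so its direction is uncertain. The calls of Tubb2a, Tubd1, Nefh and Chn2 were kept without each array, and those of Mical3, Kif1b and Dock1 ended at the highest without AML wild-type array 1 (adjusted p = 0.119, 0.11 and 0.152). Tubd1 lies on chromosome 11 near the trapped Msi2, with promoter windows from 86544741 and 88718180. Ints2 (86257545, higher), Mrps23 (88204138, lower) and Scpep1 (88955393, lower) were further called genes of that region. Whether their place beside the gene trap had a part in these calls was not tested.

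Opposite changes were found within families of enzymes and transporters. Galnt7 and Galnt6 encode transferases that start O-linked glycan chains on mucin-type proteins. Galnt7 rose from 304, 318 and 349 to 1161, 1012 and 1062 units (1.74 ± 0.15, adjusted p = 0.00113), with all 3 probe sets called, and Galnt6 fell from 526, 463 and 537 to 73.0, 108 and 108 units (-2.42 ± 0.29, adjusted p = 0.00451). The values within each genotype were close, and both calls held without each of the 12 arrays. The 60 tested genes of glycan enzymes had a median of -0.05, with 2 lower and 1 higher, beside 1.13% and 0.401% of all genes. The second lower gene was Npl, which entered through wild-type arrays alone. Npl, which cleaves sialic acid, fell below the filter level (39.4, 34.4 and 48.7 units in wild-type, at least 2.52-fold lower, adjusted p = 0.00307).

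Among 28 tested genes of ABC transporters, pumps driven by ATP, 4 were called, where 1.53% of all genes were, but the 2 lower ones entered through wild-type arrays alone. Abcc8 and Abcb1b lay below the filter level in mutants, from 63.6, 96.3 and 98.6 units (at least 5.28-fold lower, adjusted p = 0.0033) and from 44.2, 24.6 and 57.0 units (at least 2.47-fold lower, adjusted p = 0.0188). Abcg2, the pump known for marking side population stem cells, rose from 48.9, 41.3 and 27.5 to 124, 137 and 67.5 units (1.45 ± 0.28, adjusted p = 0.0365), and Abcg3 from 149.8, 219.5 and 118 to 809.9, 1119 and 851 units (2.54 ± 0.48, adjusted p = 0.0347). Abcg2 and Abcg3 belong to the same subfamily and were both higher on every mutant array. The call of Abcc8 held without each array. That of Abcb1b was lost when AML wild-type array 1 was left out (0.0853), and those of Abcg3 and Abcg2 ended at the highest without AML wild-type array 1 (0.128) and AML mutant array 2 (0.0971).

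Further lists leaned towards higher values in the mutants without a call. Of 37 tested transcription factors of the myeloid lineage 28 were positive (median 0.21, and 0.15 to 0.35 without 1 array), and Irf8, a factor of monocyte and dendritic cell fate, was among the others (-1.42, adjusted p = 0.256). Of 31 immediate early genes, which respond within minutes to stimuli, 23 were positive (median 0.33), with medians from 0.01 to 0.54 on leaving out each array. Of 27 tested genes of TGF-beta signalling 21 were positive (median 0.20, and 0.11 to 0.35 without 1 array), Smad1 among them (1.27, adjusted p = 0.0958). The phagocyte NADPH oxidase had a median of 0.28 over 8 genes, 7 of them positive.

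Some called genes belonged to none of these groups. Mgst2, which makes leukotriene C and detoxifies lipid peroxides, rose from 435, 727 and 508 to 3239, 2022 and 1944 units (2.10 ± 0.43, adjusted p = 0.048). Kcne3, a potassium channel subunit, fell from 1548, 715 and 1690 to 230.1, 258 and 101 units (-2.76 ± 0.47, adjusted p = 0.0234), and the aldo-keto reductase gene Akr1e1 from 264, 87.8 and 204 to 30.7, 23.5 and 6.14 units (-3.35 ± 0.55, adjusted p = 0.0206). No array of one genotype reached the range of the other for these 3 genes. Their calls ended at the highest without AML wild-type array 1 (adjusted p = 0.174, 0.0988 and 0.0897).

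Some genes were above the filter level in 1 genotype alone, so that their call follows in part from the filter and only a bound of their size can be given. Fam71b measured 7.0, 6.98 and 6.47 units in wild-type and 363, 127 and 93.1 units in mutant cells (at least 10.2-fold higher, adjusted p = 0.00113). Bik, a pro-apoptotic member of the Bcl2 family, measured 25.4, 46.3 and 19.3 units in wild-type and 4.51, 4.52 and 5.08 units in mutant cells (at least 1.77-fold lower, adjusted p = 0.00296). Wfdc18, a small secreted protein, went from 47.4, 529 and 92.2 to 5.17, 5.15 and 5.17 units (at least 8.26-fold lower, adjusted p = 0.00924). In all, 19 of the 115 lower genes lay below 16 units on every mutant array and 6 of the 41 higher genes on every wild-type array, and their fold sizes are lower bounds.

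The genes of chromosome 19 were lower in the mutants as a whole. The chromosome was singled out after the values were seen, so this is a description without a test. Placed by RefSeq on GRCm38.p6, 375 tested genes lay there, with a median log2 difference of -0.44 (quartiles -0.72 and -0.18), and 329 of them (87.7%) were negative. Off this chromosome 56.0% of 9805 genes were negative, and the medians of the other chromosomes ran from -0.10 (chromosome 2) to 0.03 (chromosome 17). Of its genes 18 were called lower and 0 higher (4.80%, against 1.41% elsewhere), and 142 (37.9%) lay lower on all mutant than on all wild-type arrays, against 10.7% elsewhere.

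The shift ran along the whole chromosome. With its genes split by order into 5 stretches of 75, the medians were -0.44, -0.44, -0.42, -0.55 and -0.39, and 4, 3, 4, 3 and 4 genes were called. It was present at every level of intensity, with medians from -0.62 to -0.39 over 4 ranges. It differed between arrays of the same genotype. The median deviation of the genes was 0.24, 0.30 and 0.17 on the wild-type arrays and -0.55, -0.16 and -0.01 on mutant arrays 1, 2 and 3, so mutant array 1 was far below the others and mutant array 3 only slightly below the mean. Leaving out each AML array in turn gave medians from -0.58 (without mutant array 3) to -0.32 (without mutant array 1). In bcCML the same genes had a median difference of -0.00, with array deviations from -0.05 to 0.05.

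Called genes of chromosome 19 had varied roles. Besides Psat1, Gpam, Fads1, Ndufv1, Rrp12, Mrpl16 and Mrpl11 they included Asrgl1, an asparaginase (1387, 1297 and 1230 against 586, 564 and 768 units), Borcs7, a subunit of a complex that moves lysosomes (629, 641 and 618 against 285, 398 and 306 units), Pank1, a pantothenate kinase of coenzyme A synthesis (-1.48 ± 0.30, adjusted p = 0.0452), and Atrnl1 (-1.75 ± 0.32, adjusted p = 0.03). In each, the mutant arrays lay below the wild-type arrays. Psat1, at -1.56, lay well beyond the chromosome's median, and Mrpl11, at -0.61, close to it. The calls of Asrgl1 and Borcs7 were lost on leaving out AML wild-type array 1 (0.0673 for both), as were those of Pank1 (0.164) and Atrnl1 (0.118). DNA was not measured in these samples, and what lies behind the shift was not tested. With the chromosome left out of the fit, an alternative chosen after seeing the data, 124 genes passed, 89 lower and 35 higher, and the medians of the nucleolar and mitochondrial ribosome lists were -0.36 and -0.25 and that of the serine and one-carbon list -0.42.

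**Figure D5:**
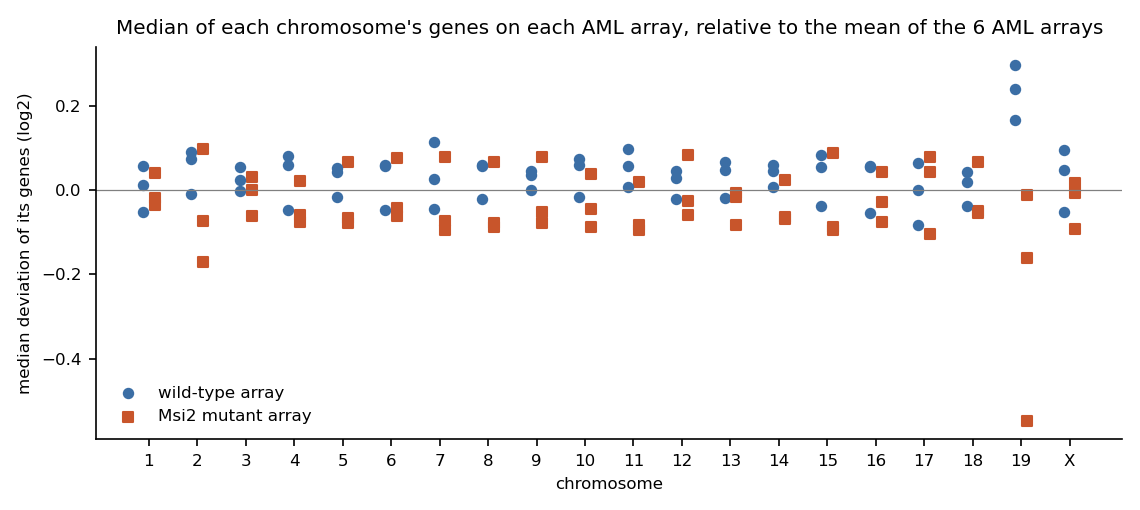
Median deviation (log2) of the tested genes of each chromosome from their mean over the 6 AML arrays, 1 point per array, with wild-type arrays as blue circles and mutant arrays as orange squares. For chromosome 19 the wild-type arrays lie at 0.24, 0.30 and 0.17 and the mutant arrays at -0.55, -0.16 and -0.01, so the mutant arrays lie below the wild-type arrays, far below for array 1.

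The AML differences were set beside those of the same genotypes in bcCML, which share no arrays with them. None of the 156 genes passed in bcCML, either in the fit without pairing or with the replicate number as a block. Same-numbered bcCML arrays deviated together. Of the 156, 100 (64.1%) had the same sign there, against 54.2% of all genes. Testing whether the leukaemias differed in their response, limma called 0 genes (0%), with a smallest adjusted p of 0.0661 and 1618 probe sets at an unadjusted p under 0.05. The replicate block gave 0 there too. This count depended on the arrays and settings, with 29 probe sets called without AML wild-type array 2, 15 without AML replicate 1 of both groups (an alternative chosen after seeing the data), 10 without a filter and 117 with array weights. Of the 156 genes, 141 had an unadjusted p under 0.05 in that test. The test contains the AML difference by which these genes were chosen, so the count is no independent sign of a difference between the leukaemias. Genes not measured in bcCML were frequent among the calls, since 34 of them (16 lower and 18 higher), such as Il1rn, Pfkfb4 and Atrnl1, lay below 16 units on all 6 bcCML arrays. Of the 387 tested genes of that kind 8.79% were called, and of the other 9834 genes 1.24%. The spread used to test such genes was taken partly from arrays below the filter level, so their p values may be too small. With members measured in bcCML too, 91 genes passed, 78 lower and 13 higher.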

How the data were processed

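Of the 12 arrays in 4 groups of 3, the 6 AML arrays were compared. The authors deposited linear intensity values for each probe set. GCRMA is the tool named in the submitters' processing notes, with its version not given in the sources used here. Its background correction presses dim probe sets onto a floor, so changes of dim genes are only partly measured. Log2 was taken without a pseudocount. Genes were named from the platform annotation by their brightest member probe set, and 34741 of the 34945 probe sets with 1 symbol matched RefSeq. All 12 arrays were fitted with limma 3.58.1 (R 4.3.3) with 1 mean per group, eBayes and a two-sided contrast of AML mutant minus wild-type. P values were Benjamini-Hochberg adjusted over the 18301 member probe sets, with a threshold of 0.05. Where a whole group lay at or under 16 units, the fold is a bound of the brighter group's mean log2 against 16 units. The fit was tested on simulated data.

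Named were called genes among the 12 smallest p values in each direction, the 10 brightest, those with 2 or more called probe sets or on a gene list, the 4 smallest p values of a list, and a fixed set of genes of this leukaemia. The members, lists and this rule were chosen with earlier results of these data known. Same-numbered AML arrays of both genotypes had deviations correlating at -0.06, -0.14 and -0.08, so they were not treated as pairs, while those of bcCML correlated at 0.349, 0.353 and 0.231. Alternatives were the arrays fitted, trend, weights and block, the filter, the pseudocount, the scaling and leaving out each array. With 3 arrays per group, precision is limited by their number.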

Additional observations from a re-analysis of the deposited data

How the results depend on the processing

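The call count varied with the arrays and spread estimate used. Against 240 probe sets (156 genes, 115 lower and 41 higher), the 6 AML arrays alone gave 0, with trend and robust estimation 7 (5 genes, 4 and 1), and with the replicate number as a block 0. All 12 arrays gave 89 with a replicate block (58 genes, 42 and 16) and 1319 with array weights (804 genes, 611 and 193, and 117 in the interaction with leukaemia, which had 0). No filter gave 138 (70 genes, 61 and 9), members measured in bcCML too 142 (91 genes, 78 and 13), and omission of AML replicate 1 of both groups, added after seeing the data, 152 (100 genes, 51 and 49). The interaction gave 10 without a filter, 8 with quantile normalisation and 15 without replicate 1 of both groups. Leaving out 1 array gave 65 to 272 probe sets, 40 to 174 genes, 28 to 103 lower and 12 to 71 higher genes, and 0 to 29 interaction calls. The Msi2 difference of -2.11 missed the threshold with the 6 AML arrays alone (adjusted p = 0.178; trend and robust 0.128; block 0.348), with no filter (0.0578) and, at -1.85, without replicate 1 of both groups (0.123), and ran from -2.46 to -1.83 without 1 array (adjusted p up to 0.0853). Of the called genes named, none reversed sign in any alternative, 1557 repeats of their calls were kept and 895 missed the threshold. The trend, pseudocount, stricter filter, centring, quantile and 1 probe set per gene alternatives gave 172 to 284 probe sets. Genes near 16 units are limited by signal over background. No paired analysis was used as the main one, since same-numbered AML arrays did not deviate together.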
